A study of Zea mays with 6 samples.

Results

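The transcripts of 3 genes that the study names formate dehydrogenase (FDH) were followed in maize roots: GRMZM2G049811, GRMZM2G362021 and GRMZM2G418005. They were chosen by name, as the FDH genes that the study places next to its methionine cycle, and are 3 of the 39219 genes on the array. They were measured as 4 transcripts with 9 probes, out of 59756 transcripts with 139000 probes. The study picked these genes on the same arrays, so its choice is not independent evidence of their direction. The roots came from maize (Zea mays) cv. PR33T56, 19 d old, and their total RNA was read in a single colour on NimbleGen arrays. The 3 arrays labelled Fe-deficient hold roots kept for the last 7 d in solution without Fe-EDTA, and the 3 labelled Fe-sufficient hold roots given 100 µM Fe-EDTA for those 7 d. All plants of both groups had first spent 7 d in Fe-free solution, so the Fe-sufficient plants were resupplied and not continuously fed. Each array holds roots of 6 pooled plants, and the study's methods give the 3 arrays of a group as independent cultivations.

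Formate dehydrogenase is a mitochondrial enzyme of plants that oxidises formate to CO2 and passes the electrons to NAD. Formate is released when methylthioadenosine, the by-product of phytosiderophore synthesis, is recycled to methionine, at the step of acireductone dioxygenase. Grasses release phytosiderophores, chelators made from methionine, to take up ferric iron. In barley roots, FDH is known as a gene induced by iron deficiency and as an enzyme of anaerobic metabolism.

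The 3 genes had no group difference that could be separated from the spread between arrays. All 4 transcripts were bright, with every probe above the 95th percentile of the random-sequence control probes on every array, and in all 4 the groups overlapped. The fitted differences between labelled Fe-deficient and labelled Fe-sufficient roots lay between 0.922-fold and 1.02-fold. The arrays nevertheless differed from each other by up to 2.39-fold, and the widest spread lay inside the Fe-sufficient group.

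The array labelled Fe-sufficient 1 stood apart from the other 5 in TOM1 and ferritin, genes of iron nutrition that were chosen after their values were seen. TOM1 (GRMZM2G063306), the exporter of phytosiderophores, had a log2 level of 8.49 on Fe-sufficient 1, against 13.51 and 12.52 on Fe-sufficient 2 and 3 and 12.61, 11.14 and 12.59 on Fe-deficient 1 to 3. The ferritin gene fer1 (GRMZM2G325575), whose protein stores iron, ran the other way, at 13.96 on Fe-sufficient 1 and between 13.22 and 13.27 on the other 5 arrays. The arrays Fe-sufficient 2 and 3 thus had TOM1 and ferritin levels within or beside those of the arrays labelled Fe-deficient. YS1 (GRMZM2G156599), the transporter that takes up the iron chelate, did not set Fe-sufficient 1 apart, at 11.34 between 11.81 and 11.11 on Fe-sufficient 2 and 3, with 11.08, 10.90 and 10.86 on the Fe-deficient arrays (not called, limma adjusted p = 0.491). Whether an array departs from its label was not tested, and the groups are kept as labelled throughout.

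The arrays as a whole were alike. The share of probes above the random-probe threshold ran from 58.4% to 66.5%, and the mean correlation of an array with the others ran from 0.961 (Fe-deficient 2) to 0.979 (Fe-deficient 1). The root markers rth3, naat1, ys1 and the gene listed as LOB23 were above background on all 6 arrays, 4 of 4. Of 13 genes of photosynthetic tissue, 8 had at least 1 probe above background on all arrays and 1 (an rbcS gene, GRMZM2G113033) on none. Among the 8, cab48 had transcript levels of only 6.73 to 7.20, below the array thresholds of 7.84 to 8.49. Their summed linear level was 30664 to 44220 on the Fe-deficient and 23465 to 31538 on the Fe-sufficient arrays, mostly from the pyruvate phosphate dikinase gene C4ppdkZm1. The light-harvesting gene CP24 stood at 12.97 on Fe-deficient 2 and at 9.02 to 9.75 elsewhere, and cab-m9 at 13.31 on Fe-sufficient 3 and at 10.43 to 11.24 elsewhere. The part of these markers in the FDH values was not tested. All arrays lay on 1 slide, with the Fe-sufficient arrays at positions 7, 8 and 9 and the Fe-deficient ones at 10, 11 and 12, so position and group cannot be told apart.

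Levels are given as log2 of the intensity, summarised over the probes of a transcript by median polish. Because probes differ in how well they bind, levels of different genes show only that each is bright, and are not compared as amounts of RNA. In bulk roots, fewer cells of a type and less RNA per cell cannot be told apart.

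The transcript GRMZM2G049811_T01, read by 3 probes, had log2 levels of 13.43, 12.75 and 13.24 on Fe-deficient 1, 2 and 3 and of 12.46, 13.72 and 13.57 on Fe-sufficient 1, 2 and 3. The Fe-sufficient group held both the lowest and the highest array, and the Fe-deficient values all lay between them. The means were 13.14 ± 0.35 and 13.25 ± 0.69 (SD, n = 3 each). The difference, Fe-deficient minus Fe-sufficient, was -0.10 on the log2 scale, with a 95% interval of -0.95 to 0.74 (limma, adjusted p = 0.929). In linear terms this is 0.930-fold with an interval of 0.517 to 1.67, which leaves room for changes of the size that the study's 1.5-fold threshold asks for, in either direction. The study lists this transcript as higher in Fe-deficient roots, at a fold above the upper end of that interval.

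The transcript GRMZM2G362021_T01, read by 2 probes, stood at 12.46, 11.98 and 12.60 on the Fe-deficient arrays and at 11.70, 12.76 and 12.50 on the Fe-sufficient arrays. Again Fe-sufficient 1 was the lowest and Fe-sufficient 2 the highest of the 6. The group means were 12.35 ± 0.33 and 12.32 ± 0.55 (SD, n = 3 each), and the log2 difference was 0.03 with a 95% interval of -0.70 to 0.75 (limma, adjusted p = 0.981). This is a fold of 1.02 (0.617 to 1.68).

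GRMZM2G418005 was measured as 2 transcripts with 2 probes each. The transcript GRMZM2G418005_T01 had levels of 14.14, 13.81 and 14.12 on the Fe-deficient arrays and of 13.83, 14.39 and 13.93 on the Fe-sufficient arrays. Its lowest array was Fe-deficient 2, with Fe-sufficient 1 only just above it, and its highest was Fe-sufficient 2. The means of 14.02 ± 0.18 and 14.05 ± 0.30 (SD, n = 3 each) differed by -0.03 on the log2 scale (95% interval -0.49 to 0.44, limma, adjusted p = 0.968). The fold was 0.982, and its interval of 0.712 to 1.35 is the only one of the 4 that stays inside 1.5-fold in both directions.

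The other transcript of that gene, GRMZM2G418005_T02, is the one the study lists. It stood at 14.08, 13.71 and 13.92 on the Fe-deficient arrays and at 13.52, 14.37 and 14.18 on the Fe-sufficient arrays. Here Fe-sufficient 1 was the lowest array and the other Fe-sufficient arrays were the highest. The means were 13.90 ± 0.19 and 14.02 ± 0.44 (SD, n = 3 each), with a log2 difference of -0.12 (95% interval -0.69 to 0.46, limma, adjusted p = 0.875) and a fold of 0.922 (0.619 to 1.37). The study lists this transcript and GRMZM2G362021_T01 as higher in Fe-deficient roots too, each at a fold above the upper end of its interval here. The source of that difference from the study was not tested.

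**Figure D1:**
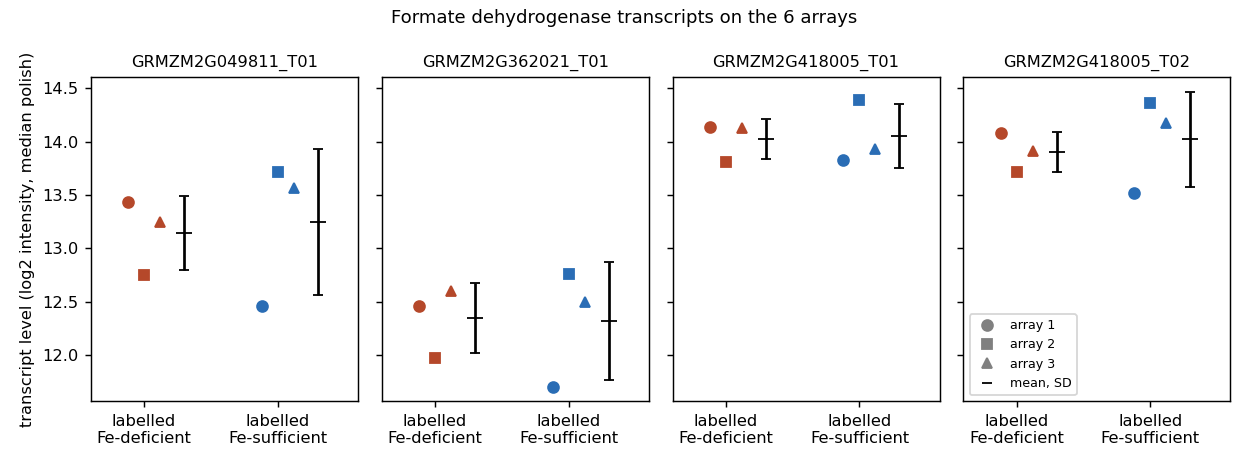
Log2 level (vertical axis, log2 intensity after median polish) of the 4 FDH transcripts on each of the 6 arrays, by labelled group. Symbols mark arrays 1, 2 and 3 of a group and the bars the mean and SD (n = 3), with Fe-sufficient 2 the highest array in all 4 transcripts and Fe-sufficient 1 the lowest in 3 of them.

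None of the 4 transcripts passed the study's thresholds, which ask for 1.5-fold and a limma p no higher than 0.05 after adjustment, in either direction; a transcript that passes both is here said to be called. Over the whole array 51 of 59756 transcripts were called, 0.0853%, with 42 (0.0703%) higher in the Fe-deficient group and 9 (0.0151%) lower. None of the FDH transcripts passed at an unadjusted p of at most 0.05 with the same fold, where 5.34% of all transcripts did, and the lowest unadjusted p among them was 0.645 in limma. Transcripts whose groups did not overlap made up 17.4% of the array and 0 of the 4 FDH transcripts. The FDH differences lay around that of the array as a whole, whose median log2 difference was 0.01.

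The difference of each transcript changed with the array labelled Fe-sufficient 1. Without it, the Fe-deficient arrays were lower in all 4 transcripts, by a log2 difference of -0.48 in GRMZM2G049811_T01, -0.28 in GRMZM2G362021_T01, -0.14 in GRMZM2G418005_T01 and -0.37 in GRMZM2G418005_T02. None of these was called (limma, adjusted p from 0.333 to 0.749), whereas 1050 of 59756 transcripts (1.76%) were called in the same fit. Without that array the groups no longer overlapped in GRMZM2G049811_T01 and GRMZM2G418005_T02, where both remaining Fe-sufficient arrays were above all 3 Fe-deficient arrays, as the groups did not overlap in either direction for 38.8% of all transcripts over these 5 arrays. Leaving out Fe-sufficient 2 moved the differences the other way, to 0.13, 0.24, 0.14 and 0.055 in the same order, also without a call. The sign of all 4 differences thus changed with which of these 2 arrays was left out.

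**Figure D2:**
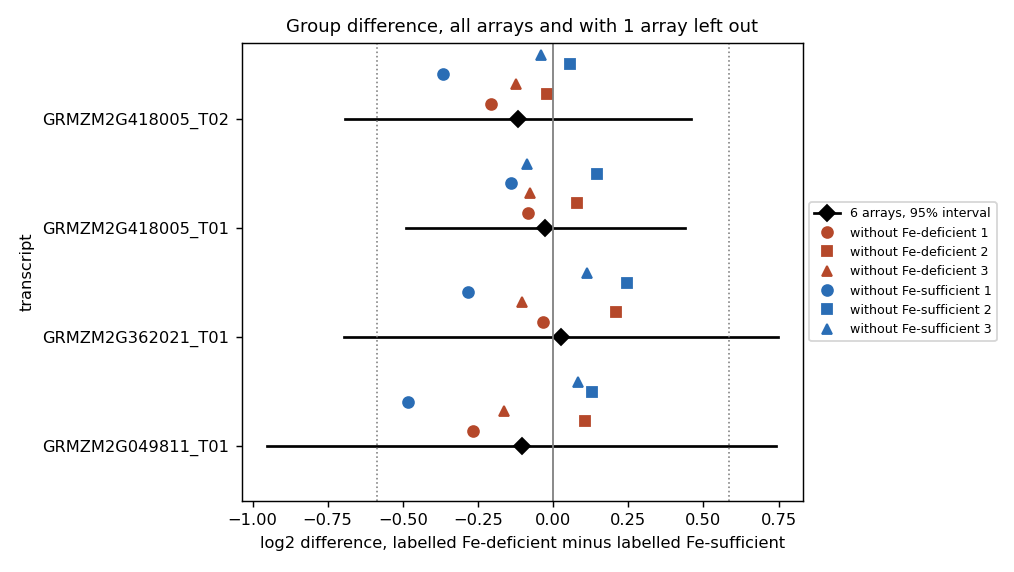
Log2 difference between the labelled groups (horizontal axis, Fe-deficient minus Fe-sufficient) for the 4 FDH transcripts. Black diamonds with lines are the limma estimates and 95% intervals from 6 arrays, coloured symbols the estimates with 1 array left out, and dotted lines mark 1.5-fold; every interval spans 0, and the estimates without Fe-sufficient 1 are the lowest in each row.

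The single probes carried the same array pattern. In GRMZM2G049811, the probe that starts at base 201 of the transcript ran from 12.46 on Fe-sufficient 1 to 13.72 on Fe-sufficient 2, the probe at base 332 from 12.80 to 14.14, and the probe at base 1481 from 10.79 to 12.04, between the same arrays. The intensity on the highest array was 2.39, 2.53 and 2.38 times that on the lowest. The probe at base 1481, far from the other 2, thus gave a like fold. They differed in Fe-sufficient 3, which stood 0.33 and 0.38 above the mean of the probe at bases 201 and 332 and 0.04 below it at base 1481 (log2 -0.04).

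The probes of GRMZM2G362021 had unlike ranges. The probe at base 1172 ran from 14.18 to 14.74, a ratio of 1.48 between the highest and the lowest array, and the probe at base 1545 from 9.23 to 10.78, a ratio of 2.92, the largest of the 9 probes. The dimmer probe at base 1545 exceeded the random-probe threshold by 1.29 (log2) on the array where it was closest to it, against 6.23 for the probe at base 1172. Both had their lowest value on Fe-sufficient 1 and their highest on Fe-sufficient 2.

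In GRMZM2G418005, 1 probe of each transcript moved more than the other. In GRMZM2G418005_T01 the probe at base 499 had a ratio of 1.79 and the probe at base 826 a ratio of 1.46. In GRMZM2G418005_T02 the ratios were 2.33 at base 621 and 1.39 at base 952. The probe at base 826 was the only one of the 9 with its lowest value on an array other than Fe-sufficient 1, at 13.81 on Fe-deficient 2 against 14.06 on Fe-sufficient 1. The probe at base 499 was alone in having Fe-sufficient 3 (13.62) close to Fe-sufficient 1 (13.59) and below all Fe-deficient arrays.

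**Figure D3:**
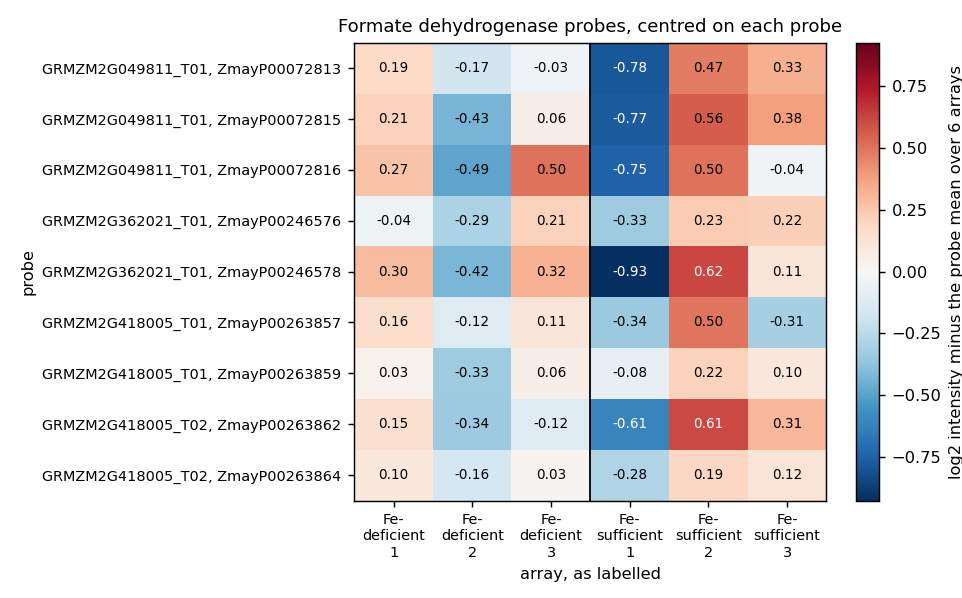
Level of the 9 FDH probes (rows) on the 6 arrays (columns), as log2 intensity minus the mean of that probe over 6 arrays. Fe-sufficient 1 is the lowest column in 8 of 9 rows, Fe-sufficient 2 the highest in 9 of 9, and Fe-deficient 2 is below the probe mean in every row.

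None of the 9 probes was called in a fit over all 139000 probes, where 0.0518% were. Their log2 differences lay between -0.21 (base 621 of GRMZM2G418005_T02) and 0.19 (base 1481 of GRMZM2G049811_T01), with limma adjusted p from 0.775 to 0.994. At an unadjusted p of at most 0.05 with 1.5-fold, 7.43% of all probes passed and none of the FDH probes. Of the 9 differences 3 were above 0 and 6 below.

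The probes that varied least were among the brightest. The ranges over the 6 arrays were 0.47, 0.54 and 0.56 (log2) for the probes at bases 952, 826 and 1172, whose levels were 13.81 or higher on every array. The widest range, 1.55, belonged to the dimmest probe, at base 1545. The probe at base 332 of GRMZM2G049811 was also bright, at 12.80 to 14.14, with a range of 1.34, so level alone does not order the ranges. Whether the scale of a bright probe is compressed was not tested.

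**Figure D4:**
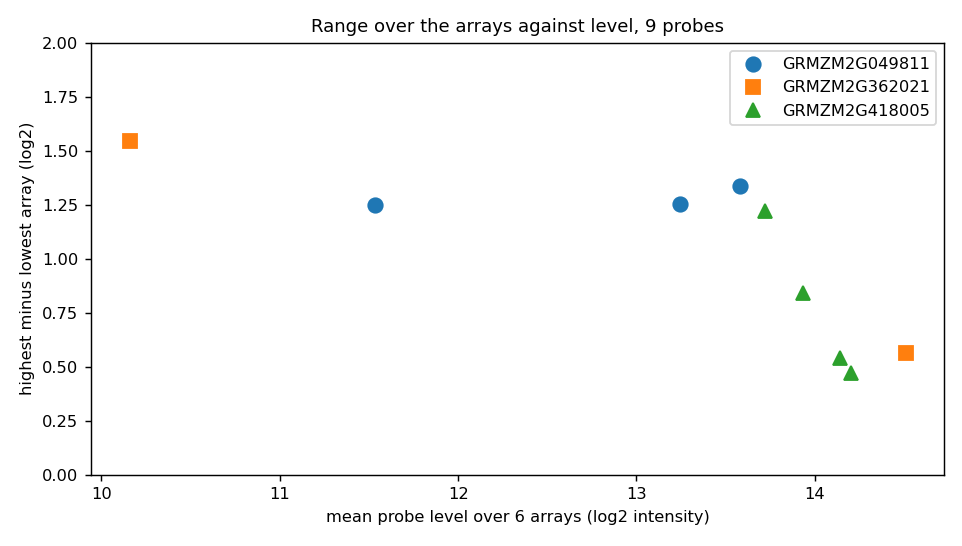
Range over the 6 arrays (vertical axis, highest minus lowest array, log2) against mean level (horizontal axis, log2 intensity) for the 9 FDH probes, with 1 symbol shape per gene. The 3 probes with the smallest ranges, 0.47 to 0.56, lie at the bright end and the probe with a range of 1.55 at the dim end.

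The FDH transcripts varied within the Fe-sufficient group more than within the Fe-deficient group. The SD over the Fe-sufficient arrays was 1.96 times that over the Fe-deficient arrays in GRMZM2G049811_T01, 1.67 times in GRMZM2G362021_T01, 1.65 times in GRMZM2G418005_T01 and 2.39 times in GRMZM2G418005_T02. Across the 43210 transcripts above background on all arrays, the SD was larger in the Fe-sufficient group for 54.9%, with medians of 0.212 and 0.188. The highest to lowest range of GRMZM2G049811_T01 (1.26 in log2, 2.39-fold) was reached by 14.0% of these transcripts and that of GRMZM2G362021_T01 (1.06, 2.08-fold) by 21.1%. GRMZM2G418005 was the steadiest of the genes, with ranges of 0.58 and 0.85 (log2) that were reached by 60.0% and 33.6%. The median range of the 43210 transcripts was 0.67.

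Having Fe-sufficient 1 lowest was seen in 16.5% of these 43210 transcripts, having Fe-sufficient 2 highest in 15.5%, and both at once in 3.30%. Of the 4 FDH transcripts 3 had both. The genes may share sequence, the probes of each gene share a transcript, and all were read on the same arrays, so these are not independent observations. The arrays of this pattern are those that stood lowest and highest in the FDH values. The pattern was not set beforehand, so the shares describe it and do not test it.

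The genes ordered the 6 arrays alike. Between GRMZM2G049811_T01 and GRMZM2G362021_T01 Pearson's r over the 6 arrays was 0.953 and Spearman's rho 0.829. Without the 2 arrays farthest from the median of the first gene r was 0.453, so the likeness rests largely on those arrays. GRMZM2G049811_T01 and GRMZM2G418005_T02 placed the arrays in the same order (r = 0.986, rho = 1.0) and kept an r of 0.994 without the 2 farthest arrays and of 0.973 without Fe-sufficient 1. The same gene's other transcript, GRMZM2G418005_T01, was less like GRMZM2G049811_T01 (r = 0.781, rho = 0.771, and r = 0.404 without the 2 farthest).

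The transcripts of GRMZM2G418005 were no more alike than transcripts of different genes. Between GRMZM2G418005_T01 and GRMZM2G418005_T02 r was 0.800 with a rho of 0.771, and 0.558 without the 2 farthest arrays. GRMZM2G362021_T01 had an r of 0.846 with the first (rho 0.771) and of 0.917 with the second (rho 0.829), and 0.826 and 0.524 without the 2 farthest arrays. With group means removed all 6 pairs of transcripts lay between 0.780 and 0.989.

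Pairs of probes gave the same picture. The 10 pairs within a gene had r from 0.518 to 0.969 (median 0.786), and the 26 pairs between genes from 0.513 to 0.998 (median 0.850). The most alike pair, at 0.998, joined the probe at base 332 of GRMZM2G049811_T01 with that at base 952 of GRMZM2G418005_T02. Whether probes of 1 gene also bind transcripts of another was not tested, since no probe or gene sequence was used here, and the level of each gene is uncertain to that extent.

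The group difference of 1 FDH gene was set against that of another on the brightest transcript of each, as the log2 difference between the genes on each array. GRMZM2G049811 minus GRMZM2G362021 was 0.80 ± 0.16 on the Fe-deficient and 0.93 ± 0.16 on the Fe-sufficient arrays (SD, n = 3 each), a shift of -0.13 (exact permutation test, two-sided, p = 0.5). For GRMZM2G049811 minus GRMZM2G418005 the shift was -0.08 (exact permutation p = 0.8), and for GRMZM2G362021 minus GRMZM2G418005 it was 0.05 (exact permutation p = 0.9). Adjusted over the 3 pairs all were 0.9, and with 3 against 3 arrays the smallest p possible is 0.1. No difference in response between the genes was detectable with this number of arrays.

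The methionine cycle genes that the study maps beside FDH, 9 genes with 25 transcripts, were read by the brightest transcript of each. These also showed no call, 0 of 9 in each direction, and the other transcripts were not counted. At an unadjusted p of at most 0.05 none passed in limma, against 9.73% of all genes. The study picked them on these arrays too. Their median log2 difference was 0.01, as was that of all 39219 genes on the array, of which 25 were called higher and 6 lower. The cystathionine gamma-synthase gene CYS1 (GRMZM2G113873), which leads sulphur towards methionine, had the lowest value at 0.737-fold (limma, adjusted p = 0.535). SAMS3 (GRMZM2G054123), which makes S-adenosylmethionine, stood at 0.781-fold (limma, adjusted p = 0.528) and the homocysteine methyltransferase gene HMT2 (GRMZM2G152470) at 0.824-fold (limma, adjusted p = 0.640). The gene of acireductone dioxygenase, ARD (GRMZM2G165998), the step that yields formate, was at 1.08-fold (limma, adjusted p = 0.811).

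The genes of this list differed in how they ran with FDH over the arrays. In this and the later correlations with other genes, GRMZM2G418005 stands for its brightest transcript, GRMZM2G418005_T01. GRMZM2G418005_T02 was not compared. MTN (GRMZM2G171111), the nucleosidase that opens the recycling of methylthioadenosine, stood at 11.48, 10.96 and 11.86 on the Fe-deficient and at 10.84, 11.88 and 11.52 on the Fe-sufficient arrays. It placed the arrays in the same order as GRMZM2G362021, with rho = 1.0 and r = 0.975, and 0.894 without the 2 farthest arrays. With GRMZM2G049811 its r was 0.877 (rho 0.829) but 0.01 without the 2 farthest arrays. MTK (GRMZM2G464137), the kinase of the next step, had an r of 0.908 with GRMZM2G362021 (rho 0.829, and 0.647 without the 2 farthest) over a range of only 0.24 (log2), and of 0.801 with GRMZM2G049811, which fell to -0.37 without the 2 farthest. CYS1 had r of 0.788, 0.693 and 0.619 with GRMZM2G049811, GRMZM2G362021 and GRMZM2G418005. Without the 2 farthest arrays it kept 0.901 with the first (rho 0.886 over all arrays), but had 0.372 and -0.09 with the others.

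The formate-releasing ARD was little like the FDH genes over the arrays, with r of 0.148, 0.253 and 0.597 and rho of 0.257, 0.314 and 0.371 for GRMZM2G049811, GRMZM2G362021 and GRMZM2G418005. HMT2 ran opposite over the 6 arrays, with r of -0.52, -0.73 and -0.62. Without the 2 farthest arrays these were 0.449, -0.59 and -0.84, so with GRMZM2G049811 the opposite run rests on those arrays. SAMS3, RPI2 (GRMZM5G891282) and APT1 (GRMZM2G131907), a gene of adenine salvage by its name, had r from -0.09 to 0.766, and GRMZM2G057506, which the study leaves unnamed, had r of 0.644, 0.774 and 0.505. All these are descriptions over 6 arrays that share a normalization.

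**Figure D5:**
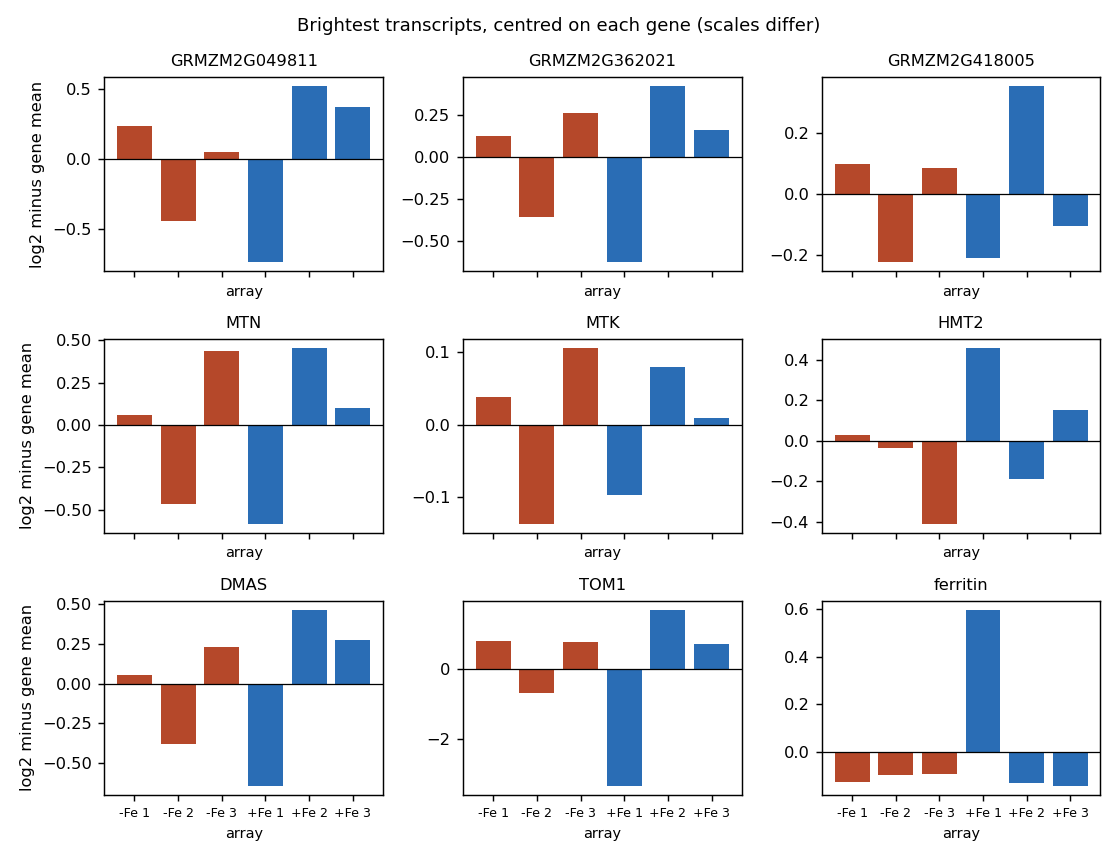
Level of 9 genes on the 6 arrays (horizontal axis, -Fe for labelled Fe-deficient and +Fe for labelled Fe-sufficient), as log2 of the brightest transcript minus the mean of that gene (vertical axis, its scale set for each gene). The 3 FDH genes, MTN, DMAS and TOM1 are below their means on Fe-deficient 2 and Fe-sufficient 1 and above them on Fe-sufficient 2, and ferritin stands out on Fe-sufficient 1 only.

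The named genes most like GRMZM2G362021, but not those most like the other FDH genes, included 1 of phytosiderophore synthesis. Among 30461 genes above background on all arrays, DMAS (GRMZM2G060952), the last enzyme of deoxymugineic acid synthesis, was the 4th most correlated with GRMZM2G362021 and the first with an informative name. Its levels were 13.39, 12.96 and 13.57 on the Fe-deficient and 12.69, 13.80 and 13.61 on the Fe-sufficient arrays. Its r with GRMZM2G362021 was 0.989 (rho 0.943, and 0.882 without the 2 farthest arrays). With GRMZM2G049811 DMAS ranked 77th (r = 0.966, and 0.655 without the 2 farthest arrays). With GRMZM2G418005_T01, the brightest transcript of its gene, DMAS ranked 750th (r = 0.805, and 0.669). GRMZM2G418005_T02, which was more like GRMZM2G049811_T01 over the arrays, was not compared with DMAS. For GRMZM2G362021, the named genes after DMAS were MPAO (GRMZM2G034152, r = 0.980), a polyamine oxidase by its name, and mrpi-1 (GRMZM2G139160, r = 0.965). With group means removed the named genes were MPAO, bk2 (GRMZM2G109326) and DMAS, at 0.998, 0.997 and 0.996, of which bk2 had an r of 0.718 on the levels themselves.

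For GRMZM2G049811 the named genes were EREB34 (GRMZM5G846057, r = 0.983, rho 1.0), gst9 (GRMZM2G126763, r = 0.980, rho 0.943) and mrpi-1 (r = 0.978, rho 0.943). They ranked 19th, 29th and 33rd among all genes compared. EREB34 is named as a transcription factor of the ethylene response type and gst9 as a glutathione transferase. For GRMZM2G418005 the named genes were Cyclin-SDS (GRMZM2G093157, r = 0.979), the heat shock factor Hsf23 (GRMZM2G173090, r = 0.967) and CER1 (GRMZM2G099097, r = 0.956), ranked 5th, 10th and 24th. With group means removed, EREB34, gar2 and crs1 came first among the named genes for GRMZM2G049811, all at 0.994 and ranked 19th, 20th and 21st of all genes. For GRMZM2G418005 the first named genes were ANAC010 (0.997), pip (0.996) and EF1-A (0.996), ranked 3rd, 6th and 7th. On the levels, without the 2 farthest arrays, r was -0.24 for gar2, -0.10 for ANAC010 and 0.151 for pip, and 0.988, 0.995 and 0.997 for EREB34, crs1 and EF1-A. With 6 arrays such values are common: an r above 0.9 on the levels was reached by 434 genes (1.42%) for GRMZM2G049811, 314 (1.03%) for GRMZM2G362021 and 180 (0.591%) for GRMZM2G418005. With group means removed the shares were 4.65%, 3.72% and 1.84%.

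Other genes of iron nutrition, chosen after their values were seen, were set beside FDH in the same way. TOM1 had an r of 0.935 with GRMZM2G049811, 0.957 with GRMZM2G362021 and 0.760 with GRMZM2G418005, over a range of 5.02 (log2), far wider than that of any FDH gene. Without the 2 farthest arrays its r were 0.719, 0.894 and 0.796. Ferritin had r of -0.77, -0.78 and -0.48 in the same order, and of -0.82, 0.139 and -0.76 without the 2 farthest arrays. It stood between 13.22 and 13.27 on every array but Fe-sufficient 1. The nicotianamine synthase gene NAS (GRMZM2G050108) had r of 0.612, 0.654 and 0.390, and YS1 of 0.309, 0.219 and 0.569. Without the 2 farthest arrays NAS had 0.455, 0.954 and 0.763, and YS1 0.892, 0.752 and -0.83. On Fe-sufficient 3, TOM1 and DMAS were above their means over the arrays by 0.71 and 0.27 (log2), with GRMZM2G049811 and GRMZM2G362021 also above theirs. The transcript GRMZM2G418005_T01 was below its own (-0.11), but the probes of GRMZM2G418005_T02 were above theirs, by 0.31 and 0.12.

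Of the genes found by symbols of one-carbon metabolism, the folate, glycine and formaldehyde steps that feed or use formate, the IDs GRMZM2G078118 and GRMZM5G824600 share the table name fdh1. The table gives no role for that name, and it lists both IDs under a further gene, so they are not counted as formate dehydrogenases here. Neither was called, at 0.942-fold and 0.792-fold (limma, adjusted p = 0.820 and 0.498), and neither had an unadjusted p of at most 0.05.

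Of 16 genes of anaerobic fermentation, among them alcohol, lactate and aldehyde dehydrogenases, pyruvate decarboxylase and sucrose synthase, 0 were called in either direction. Their median log2 difference was 0.14. The 3 with the lowest adjusted p in limma were GRMZM2G090087, an ID the table pairs with ALDH12 and with a further gene, at 1.36-fold (adjusted p = 0.445), ALDH7 (GRMZM2G130440) at 1.41-fold (adjusted p = 0.487) and the alcohol dehydrogenase gene adh2 (GRMZM2G098346) at 1.36-fold (adjusted p = 0.492). Only the first had an unadjusted p of at most 0.05, 1 of 16 genes against the 9.73% of all genes. Without Fe-sufficient 1, the aldehyde dehydrogenase gene aldh5 (GRMZM2G097706) was called, at 0.373-fold in the Fe-deficient arrays (limma, adjusted p = 0.0109), against 0.541-fold with all arrays (limma, adjusted p = 0.506). In that fit 1050 transcripts of the array were called, 894 of them lower in the Fe-deficient arrays.

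Over the arrays, the fermentation genes ran with and against the FDH genes, with r below 0 for 11 of 16 genes with each of the 3; those named here were picked with their values known. The alcohol dehydrogenase gene adh1C (GRMZM2G361662) had r of -0.85, -0.82 and -0.68 with GRMZM2G049811, GRMZM2G362021 and GRMZM2G418005, and of -0.91, -0.76 and -0.54 without the 2 farthest arrays. The gene aldh5 ran the other way, with r of 0.771, 0.641 and 0.491, and placed the arrays in the same order as GRMZM2G049811 (rho 1.0). Without the 2 farthest arrays its r were 0.881, 0.428 and -0.19. A pyruvate decarboxylase gene, PDC (GRMZM2G038821), stood at 9.52, 11.90 and 8.81 on the Fe-deficient and at 11.76, 9.39 and 8.93 on the Fe-sufficient arrays. Its high arrays, Fe-deficient 2 and Fe-sufficient 1, are the ones on which the FDH genes were lowest. Its r was -0.88 with GRMZM2G049811, -0.92 with GRMZM2G362021 and -0.67 with GRMZM2G418005, with rho of -0.54, -0.77 and -0.54. Without the 2 farthest arrays these r were 0.472, 0.07 and -0.71, so for GRMZM2G049811 and GRMZM2G362021 the relation rests on those 2 arrays. The pyruvate decarboxylase gene GRMZM2G087186, which the study names, was also highest on Fe-deficient 2 (14.35) but stood at 12.89 on Fe-sufficient 1, and had r of -0.48, -0.47 and -0.40.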

How the data were processed

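Per the labels, 6 root samples were measured on single-colour arrays. The authors analysed the images with NimbleScan and normalized by quantiles, and RMA is named in the submitters' processing notes. The deposited values are linear probe intensities with nearly the same distribution on every array (medians from 549.97 to 550.03), and the deposited value table holds the same intensities. The sources used here do not say if background was subtracted before deposit. No comparison by the authors entered the fits, and the authors' quantile step leaves changes relative to the other genes of an array.

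The log2 of each intensity was taken and probes of a transcript summarised by median polish. All 59756 transcripts, and separately all 139000 probes, were fitted with lmFit and eBayes (limma 3.58.1, R 4.3.3), Fe-deficient minus Fe-sufficient, with no covariate and Benjamini-Hochberg adjustment over all of them. A call needed 1.5-fold or more and an adjusted p no higher than 0.05. Background was the 95th percentile of 1663 random probes per array, and a transcript was above it with at least 1 such probe. The 3 genes and the lists were chosen with earlier results of these data known. For correlations and lists the brightest transcript of a gene was used. Named in the text are all members, the methionine cycle genes in range, the 3 genes of each other list with the lowest adjusted p, and the 3 informatively named genes most correlated with each member.

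Names came from a RefSeq gene table through its symbols and synonyms. It matched 18172 genes to 1 entry and 519 to several, gave 2539 a usable name, and matched 0 of the 3 members, so FDH follows the study. A further gene of the one-carbon list is not reported here. The deviations of samples of the same replicate number had correlations of -0.12, -0.0082 and 0.0702. The number was not used as a pairing in the main fits, though such values cannot show that no cultivation was shared. The fits were run on simulated data with independent noise for each transcript. Those data held no effect shared by an array, so they do not bear on how the results depend on single arrays. Alternatives were the replicate block, each array left out, array weights, transcripts dim on most arrays left out, probe means, median scaling, cyclic loess and an RMA-type background correction. Tables and plots were made with Python 3.11.15.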

Additional observations from a re-analysis of the deposited data

How the results depend on the processing

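No FDH transcript or probe was called under any of the alternatives run. The log2 differences were small enough to change sign: GRMZM2G049811_T01 was 0.021 with the mean of probes, GRMZM2G362021_T01 was -0.081 with array weights, and the shift between GRMZM2G049811 and GRMZM2G418005 was 0.048 with the mean of probes. With 1 array left out, the differences ran from -0.48 to 0.13 for GRMZM2G049811_T01, -0.28 to 0.24 for GRMZM2G362021_T01, -0.14 to 0.14 for GRMZM2G418005_T01 and -0.37 to 0.055 for GRMZM2G418005_T02. The lowest value came each time without Fe-sufficient 1 and the highest without Fe-sufficient 2. The shift of GRMZM2G049811 minus GRMZM2G418005 ran from -0.34 to 0.17 and that of GRMZM2G362021 minus GRMZM2G418005 from -0.14 to 0.20. Leaving out 1 array gave 0 to 1 called fermentation gene, the 1 being aldh5 without Fe-sufficient 1, and no call among the methionine cycle genes and the fdh1 IDs.

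Over the whole array, the 51 calls (42 higher, 9 lower) became 28 (24 and 4) with an RMA-type background correction, 165 (120 and 45) with array weights, and 3190 (1515 and 1675) at an unadjusted p of at most 0.05. The replicate block gave 0 calls, 0 higher and 0 lower. The study's methods describe repeated cultivations with a pool of roots for each treatment, so arrays of both groups may share a cultivation. Whether the replicate number marks one was not tested. In this balanced design the block leaves the log2 differences unchanged by construction, which is no check on them. With 1 array left out the calls ran from 1 to 1050, the higher ones from 1 to 156 and the lower ones from 0 to 894, with 1050 without Fe-sufficient 1 and 1 without Fe-deficient 1. The cause was not tested. The number of arrays, 3 a group, limits precision: the 95% intervals of 3 of the 4 FDH transcripts reach beyond 1.5-fold.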
